A study of Mus musculus with 4 samples.

Results

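The 428 tiled regions described here had a moderate RING1B ratio and an H3K27me3 ratio under 2-fold. They were taken from 19196 regions on chromosomes 1 to 19 with a value for both antibodies, in the forelimb bud of the mouse embryo at stage E10.5. A tiled region is a run of array probes whose neighbouring starts lie at most 1000 bp apart. Its value is the highest mean of 3 neighbouring probes, termed the top window, on a log2 scale centred on the median of each array. Members had a RING1B top window of at least 1.5 (2.83-fold) and an H3K27me3 top window under 1. The members were thus chosen by their RING1B and H3K27me3 ratios, which are given as a description and were not tested.

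RING1B is the catalytic subunit of Polycomb repressive complex 1, which ubiquitinates histone H2A and compacts chromatin. H3K27me3 is trimethylation of histone H3 by Polycomb repressive complex 2, and canonical forms of the first complex bind it through their CBX subunits. Variant forms carry RYBP or YAF2 in place of CBX and reach chromatin by other routes, such as binding to CpG-rich DNA. At developmental genes of the limb, among them the Hox clusters, both signals usually lie together.

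Per the labels, chromatin came from pools of whole forelimb buds of wild-type BDF1 embryos, fixed in formaldehyde, and both groups shared this source. One group of 2 arrays held the RING1B precipitate and the other group of 2 arrays the H3K27me3 precipitate, each set against input DNA in the other dye. Arrays 1 and 2 of an antibody carry different probes, so every region was measured on 1 array per antibody. No test across samples was therefore possible, and the error given with a window (±) is the SD of its 3 probes. A whole limb bud holds mesenchyme, ectoderm, blood and vessel cells, and a moderate ratio from all cells cannot be told apart from a high ratio in some of them.

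Ratios are written as Cy5 over Cy3. The labels give Cy3 to the precipitate, the opposite of this reading, and if they hold, all signs are reversed and the members would be regions low in RING1B. The choice of Cy5 rests on the arrays themselves and is called likely only. Between the antibodies, Cy3 signals correlated across kept probes with r = 0.952 on array 1 and 0.834 on array 2, and Cy5 signals with 0.709 and 0.737. Probes are not independent replicates, and these values do not settle the direction.

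Probes were kept where both dyes were well above background. Kept probes made up 83.1% to 85.9% of the probes on chromosomes 1 to 19 of an array. Neighbouring kept probes differed with an SD of 0.74 (array 1) and 0.76 (array 2) on the RING1B arrays, and of 0.65 and 0.67 on the H3K27me3 arrays.

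The members formed the upper edge of a continuous distribution and not a separate group. Of all regions with both values, 17.5% had a RING1B top window of at least 1.5, and 69.7% had H3K27me3 under 1. The members are the 2.23% that met both conditions, and 12.8% of the regions that met the RING1B condition. Among the 13385 regions with H3K27me3 under 1 they made up 3.2%, while 2411 such regions lay between 1 and 1.5 for RING1B. A further 2 regions reached 1.5 for RING1B and had no H3K27me3 window. The same rule with both signs turned was met by 828 regions, 4.31% of all. This balance depended on the processing: with normexp background correction 1 region met the turned rule and 63 the rule itself, and with no filter on dim probes 2384 and 932 did.

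**Figure D1:**
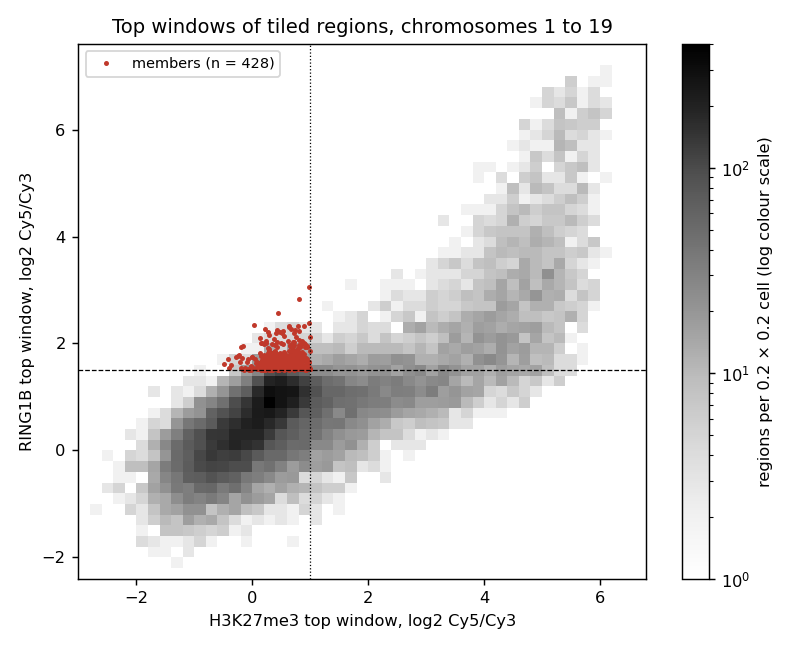
The highest 3-probe mean of each tiled region is plotted for RING1B (vertical) against H3K27me3 (horizontal), both as log2 Cy5/Cy3; grey cells count regions and red points are the 428 members. The members lie just above the dashed line at 1.5, at the end of the dense cloud of regions with H3K27me3 under 1 (dotted line), with no gap between them and the regions below.

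Most members stood close to the RING1B threshold. Regions are named here by chromosome and by the probe positions in the files, for which no build is stated, so genes, exons and promoters were not assigned. Their top windows ran from 1.5 to 3.05 with a median of 1.65, and 163 of 428 (38.1%) were under 1.6. At the upper end 39 reached 2 and 3 reached 2.5. The standard deviation over the 3 probes of the top window had a median of 0.54, wider than the distance of the upper quartile, 1.76, from the threshold. The regions just inside were 7405995 to 7409644 on chromosome 19, 25449988 to 25460120 on chromosome 17 and 9590313 to 9598372 on chromosome 3, all at 1.5 after rounding. Those just outside were 111334498 to 111342373 on chromosome 12, 82836563 to 82837190 on chromosome 11 and 28657397 to 28667845 on chromosome 2, at 1.5 after rounding too.

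The H3K27me3 side of the rule was likewise crossed without a step. The H3K27me3 top windows of members ran from -0.49 to 1.00 with a median of 0.49. They lay under 0 in 24 members, and between 0.5 and 1 in 206. Just inside the threshold were 58957303 to 58964249 on chromosome 2 (1.00), 9706343 to 9710100 on chromosome 18 (0.99) and 119843449 to 119846856 on chromosome 2 (0.99). Just outside were 4169320 to 4175512 on chromosome 19 (1.00), 67249229 to 67257206 on chromosome 7 (1.01) and 94344829 to 94349885 on chromosome 9 (1.02). The last of these had RING1B at 2.09 ± 0.30 and would be among the stronger members.

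H3K27me3 was also read over the probes of the RING1B top window. Its mean there had a median of 0.18 (quartiles -0.13 and 0.46) in the 427 members with at least 1 kept H3K27me3 probe, beside 0.13 over all regions. It was under 0 in 149 of them and at least 1 in 2. RING1B exceeded H3K27me3 in that window by at least 1 in 377 of 427 members (88.3%), with a median difference of 1.53. The rule largely fixes this difference, which reached 1 in 48.9% of the regions just below the RING1B threshold and in 26.1% of all regions. All 3 H3K27me3 probes were kept in 349 of 428 windows. The 2 antibodies are not on a common scale, so this difference is one of array ratios and not of occupancy.

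**Figure D2:**
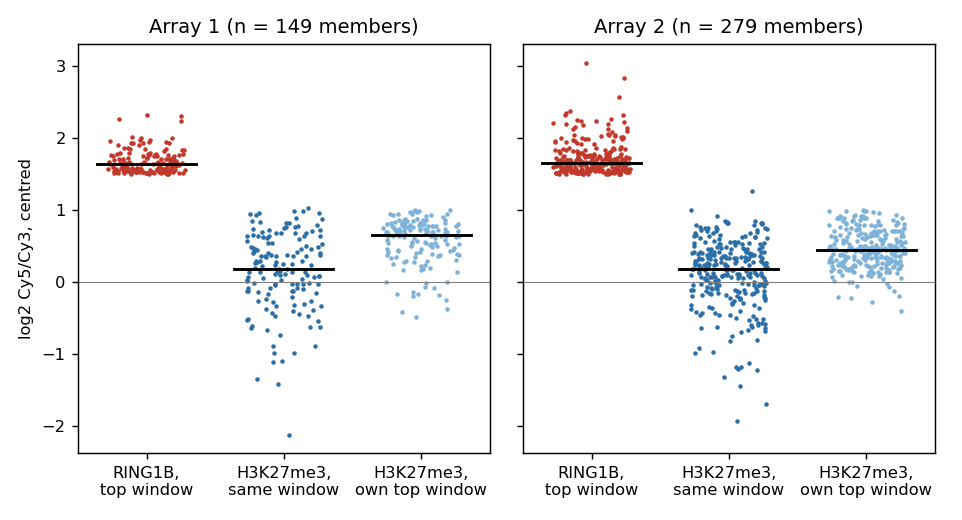
Each point is 1 member, on array 1 (149 members) and array 2 (279 members); the vertical axis is log2 Cy5/Cy3 and black bars are medians. RING1B in its top window has a lower edge at 1.5 set by the rule, and H3K27me3 in the same window spreads around 0, with medians of 0.19 and 0.18.

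The strongest member lay from 33329136 to 33336113 on chromosome 14. Its 3 RING1B probes read 3.42, 2.68 and 3.06, a mean of 3.05 ± 0.37, in 33330150 to 33330579. The 2 kept H3K27me3 probes there read 0.62 and 0.46. This was also the broadest member, with 8 windows of at least 1.5, and the nearest probes on either side of the window averaged 2.13. RING1B averaged 1.07 over all kept probes of the region. H3K27me3 averaged 0.61 over the region, the highest of all members, whose median was -0.57. Its lowest window there was 0.16, and its own top window, at 0.98, was just under the threshold.

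The next 3 differed in shape. On chromosome 12, from 85302963 to 85309465, RING1B read 2.63, 3.49 and 2.38 (mean 2.83 ± 0.58) where H3K27me3 read 0.64, 0.85 and 0.91. Its flanking probes averaged 0.71. On chromosome 9, from 66716737 to 66724321, RING1B read 2.18, 2.48 and 3.07 (mean 2.57 ± 0.46) and H3K27me3 0.58, 0.48 and -0.47. Over the whole of that region RING1B averaged 0.03, although 6 windows reached 1.5. In 56697872 to 56704677 on chromosome 14, RING1B read 2.73, 1.78 and 2.62 (mean 2.38 ± 0.52), H3K27me3 0.28, -0.33 and 0.33, and the flanking probes averaged 1.82.

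**Figure D3:**
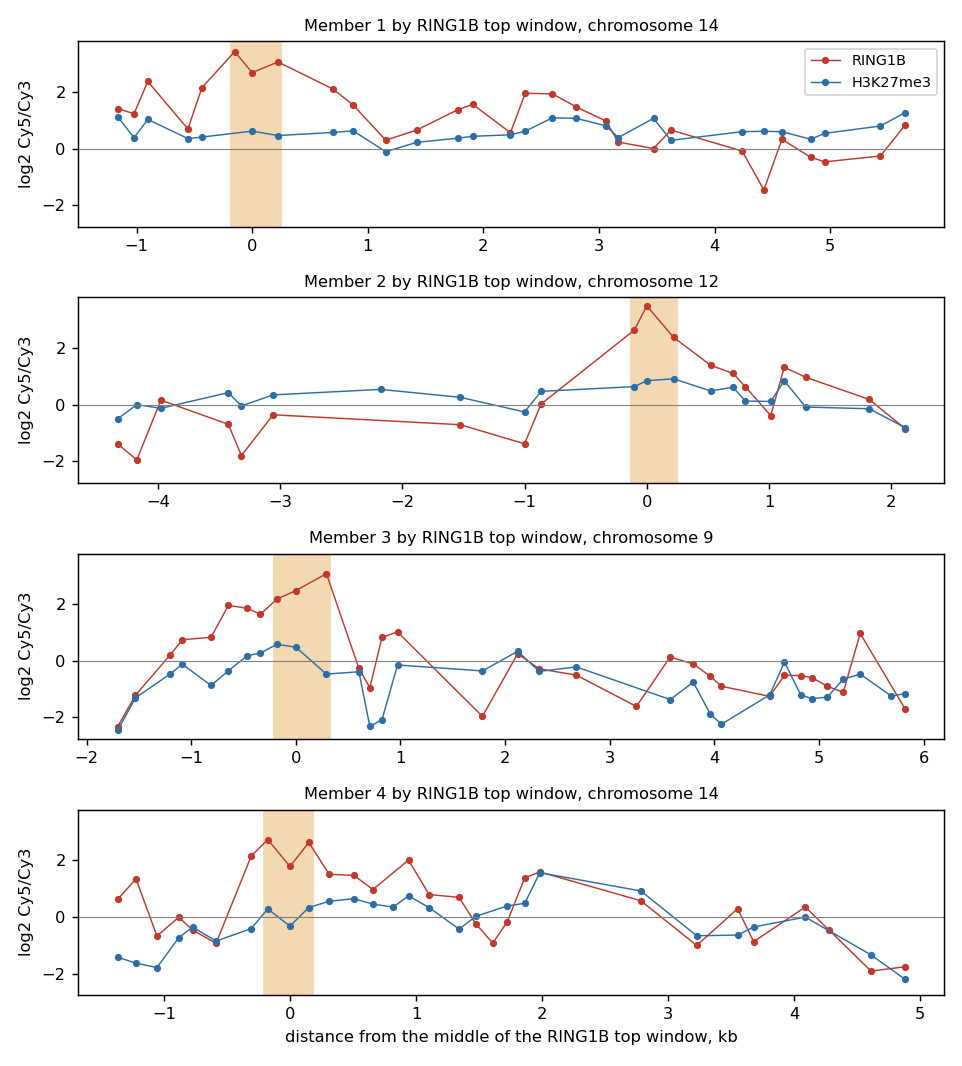
RING1B (red) and H3K27me3 (blue) at every kept probe of the 4 members with the highest RING1B top window, as log2 Cy5/Cy3 against distance in kb from the middle of that window (shaded). Within the shaded windows the highest RING1B probes read 3.42, 3.49, 3.07 and 2.73, and the H3K27me3 probes lie between -0.47 and 0.91.

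The other 8 of the 12 highest ran from 2.26 to 2.35. Their windows were unequal in quality. In 108340442 to 108348300 on chromosome 4 the mean of 2.31 ± 1.48 rested on 1 probe at 3.98, beside 1.15 and 1.81, and the flanking probes averaged -0.17. In 20391638 to 20400234 on chromosome 5 the probes read 2.13, 2.72 and 2.14, a mean of 2.33 ± 0.34. There H3K27me3 read -2.09, -1.45 and -0.52, the lowest of these 12. The others were 58561100 to 58567695 on chromosome 19 (2.35 ± 0.90), 27327108 to 27335174 on chromosome 14 (2.33 ± 0.69) and 20640491 to 20644029 on chromosome 10 (2.32 ± 0.41). They also included 121348419 to 121356432 on chromosome 1 (2.27 ± 0.37), 6971899 to 6982556 on chromosome 19 (2.26 ± 0.81) and 45054397 to 45077137 on chromosome 19 (2.26 ± 0.64). Of the 12 highest, 9 lay on array 2 and 3 on array 1.

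The widest gaps between the antibodies lay mostly in other members, with low H3K27me3 and RING1B nearer the threshold. The largest difference, 3.84, belonged to a chromosome 4 member, 46466621 to 46474590. Its RING1B was 1.71 ± 0.80, and the 2 kept H3K27me3 probes read -2.38 and -1.87. The chromosome 5 member above followed with 3.68. In 85701714 to 85709614 on chromosome 15 all 3 probes of the window were kept for both antibodies, RING1B at 2.20, 1.93 and 1.83 and H3K27me3 at -1.60, -1.02 and -1.71, a difference of 3.43. The remaining 5 were 24161288 to 24169283 and 63815357 to 63818524 on chromosome 18, 88559604 to 88567461 on chromosome 15, 20803063 to 20810658 on chromosome 1 and 62731892 to 62739777 on chromosome 10. They differed by 2.93 to 3.46, and each had only 1 or 2 kept H3K27me3 probes in the window. In the 8 windows of widest gap the median probe was 52 to 60 bases long, against 45 in all members. Long probes read lower for H3K27me3 than for RING1B in regions under both thresholds too, as given further on. The log2 H3K27me3 Cy5 of these windows was 6.93 to 9.64, below the median of 10.3 on either array.

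RING1B was narrow in most members. In 237 of 428 a single window reached 1.5, in 113 a pair, in 47 there were 3, and 31 had 4 or more. More than 1 window reached 1.5 in 44.6% of members. Regions with RING1B between 1.5 and 2 and H3K27me3 of at least 1, termed shared regions of like RING1B here, did so in 64.8%. The median share of windows within 2-fold of the top was 28% in members and 38.3% in these 801 regions. It was 30% in all 2925 regions with RING1B of at least 1.5 and H3K27me3 of at least 1. In regions with RING1B of 1 to 1.5 and H3K27me3 under 1 it was 41.2%. A low share was thus not particular to members. As broad as the chromosome 14 member above was 69210142 to 69219900 on chromosome 11, with 8 windows and a top of 2.13 ± 0.44. The chromosome 9 member above and 14662755 to 14668418 on chromosome 19, at 2.20 ± 0.46, had the highest tops among 5 members with 6 windows. In the latter RING1B averaged 1.08 over the region and H3K27me3 -0.16.

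Away from the top window RING1B fell to the level of the array within about 1 to 2 kb. The median over members was 1.65 in the window, 0.66 within 500 bp of its middle once the window's own probes were left out, 0.30 at 500 to 1000 bp and -0.12 at 1000 to 2000 bp. At 3000 to 4000 bp it was -0.32. The shared regions of like RING1B started at 1.72 and held 0.88, 0.79 and 0.31 over the same distances, so the gap between the sets was widest at 500 to 1000 bp. In regions with RING1B of 1 to 1.5 and H3K27me3 under 1 the values were 0.38, 0.07 and -0.28. A window chosen for its height falls at its neighbours in every set, and the first value outside it is read only against the other sets.

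The nearest kept probes on either side of the window averaged 0.62 (quartiles 0.27 and 0.90) in members, 0.85 in the shared regions of like RING1B and 0.32 in the regions just below the RING1B threshold. They averaged under 0 in 13.1% of members, 4.39% of the shared regions and 28.7% of those just below. The members thus lay between both sets in this measure. It comes from the same arrays as the rule and is no independent support.

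H3K27me3 followed the outline of RING1B in members at a lower level. Its median was 0.19 in the RING1B window, -0.07 within 500 bp, -0.42 at 500 to 1000 bp and -0.76 at 1000 to 2000 bp. The shared regions of like RING1B had 2.57, 1.80, 1.83 and 1.61, and the regions just below the RING1B threshold 0.22, -0.24, -0.70 and -0.97. The middles of the RING1B and the H3K27me3 top windows lay a median of 325 bp apart in members and coincided in 82. That median was 344 bp over all regions with both values, 256 bp just below the RING1B threshold and 479 bp in the shared regions of like RING1B. The lower quartile was 118 bp in members and 0 bp over all regions, so closeness of the middles was not particular to members. Across the probes of a member the ratios of both antibodies correlated with a median r of 0.55, over 419 members with at least 10 probes kept for both. It was 0.55 in the regions just below the RING1B threshold, 0.54 in the shared regions of like RING1B and 0.48 in regions under both thresholds. Over all regions with both values this median r was 0.51. The arrays of both antibodies share their probes, and the ratios depend on the probe, as given further on.

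**Figure D4:**
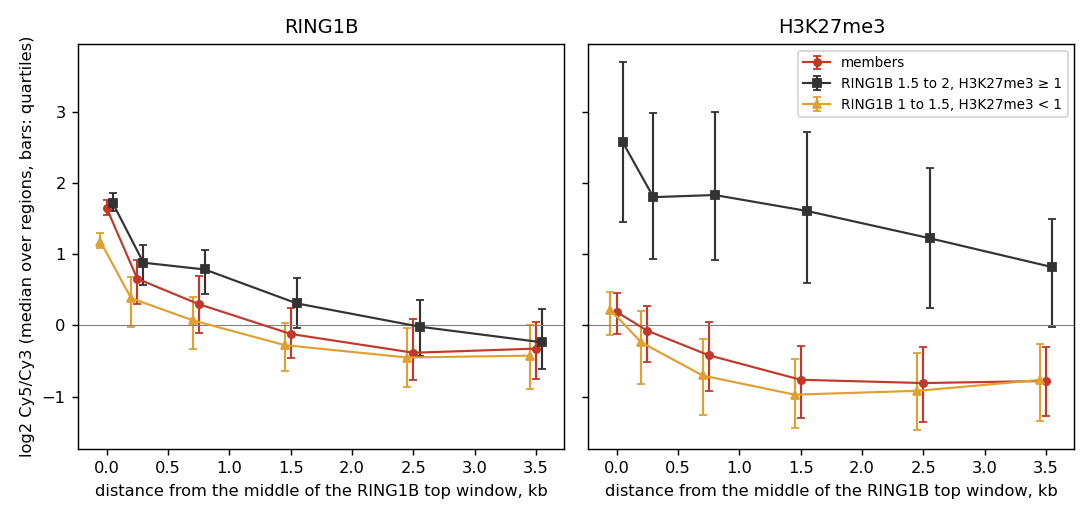
Median log2 Cy5/Cy3 (bars: quartiles over regions) of RING1B (left) and H3K27me3 (right) by distance in kb from the middle of the RING1B top window, whose own probes are plotted at 0 and left out elsewhere. On the left, members (red) start with the shared regions of like RING1B (dark). They fall towards the regions just below the threshold (yellow), whose medians stay lower at every distance. On the right, members start beside the yellow set, at 0.19 and 0.22, far below the dark set at 2.57.

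Over whole regions RING1B averaged above 0 in 292 of 428 members (68.2%) and H3K27me3 in 37 (8.64%). Regions under both thresholds had 19.2% and 9.71%, those just below the RING1B threshold 46.7% and 5.6%, and all regions 36.3% and 34.6%. The RING1B averages include the top window, by which the rule set members and regions under both thresholds apart. The median of the RING1B averages was 0.13 in members and -0.35 in regions under both thresholds, while the H3K27me3 averages were -0.57 and -0.77.

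Members were spread over all 19 chromosomes and were more frequent on 1 of the array designs. On array 2 they were 279 of 9090 regions, 3.07% (95% Wilson interval 2.73 to 3.44), and on array 1 149 of 10106, 1.47% (1.26 to 1.73). These intervals cover counting error only. Shares ran from 1.08% on chromosome 6 to 1.93% on chromosome 2 among chromosomes 1 to 8, all on array 1. On array 2 they ran from 1.93% on chromosome 9 to 4.73% on chromosome 12. Chromosome 9 was tiled on both arrays, with 0 of 214 regions a member on array 1 (upper bound 1.76%) and 19 of 985 on array 2 (1.24% to 2.99%). Elsewhere chromosome and array cannot be told apart. The sign-turned rule found 4.33% on array 1 and 4.29% on array 2. The median RING1B top window of members was 1.64 on array 1 and 1.65 on array 2, close to the threshold that chose them. Their H3K27me3 top windows had medians of 0.66 and 0.44, and H3K27me3 Cy5 in the RING1B window differed from the array median by -0.53 and 0.33.

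The distance of members to strong Polycomb regions was read beside that of all regions. The nearest region with both antibodies at 3 or more, of which there were 1174, lay a median of 452 kb away from a member, against 511 kb over all regions with both values. It was within 50 kb for 28 members (6.54%), beside 7.61% of all regions. Another member lay within 50 kb of 18 members (4.21%), and a member lay that close to 4.52% of all regions. Any region with both values lay within 50 kb of 70.1% of members and of 81.1% of all regions, so these shares are not a like comparison. The closest strong region to one of the 12 highest was 3.94 kb from the chromosome 19 member that starts at 6971899.

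The share of members rose with the number of windows tiled, and the part of tiling in the count was not tested. Members had a median of 30 probes and 25 windows, against 22 and 17 over all regions with both values. Of regions with H3K27me3 under 1, 0.177% were members among those with 1 to 9 windows, 3.35% with 10 to 19, 5.8% with 20 to 29, 7.92% with 30 to 39 and 8.68% with 40 or more. The sign-turned rule was read here over another base, the regions whose lowest H3K27me3 window met the turned condition. Its share rose from 6.4% at 1 to 9 windows to 15.2% at 30 to 39 and was 9.25% at 40 or more. The 2 sets of shares are therefore not on 1 base. Within the region the RING1B window lay a median of 1888 bp from the nearer end, 1793 bp in the shared regions of like RING1B, so neither set gathered at the ends.

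Short probes were frequent under the members' RING1B signal. The rule did not use probe length as such, but the ratio it used moved with length, as the next paragraph gives. The Wilson interval below covers counting error only. Probes were 44 to 60 bases long with a median of 57. The median probe of the RING1B top window was 45 bases or shorter in 227 of 428 members (53%, 95% Wilson interval 48.3 to 57.7). This held in 28.9% of all regions with both values and in 37.8% of the shared regions of like RING1B. In regions with RING1B of 1 to 1.5 and H3K27me3 under 1 it held in 65%, more often than in members. Under the sign-turned rule the median probe of the window was 60 bases, so this feature turns with the direction of the ratio. The regions of members also held more short probes as a whole, a median of 21.4% of probes at up to 45 bases against 13.8% in all regions and 22.2% in the shared regions of like RING1B.

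The ratio itself moved with probe length in regions under both thresholds. There the median RING1B ratio of probes up to 45 bases was 0.49 on either array, and of 60-base probes -0.56 on array 1 and -0.53 on array 2. For H3K27me3 it was 0.24 and 0.09 at up to 45 bases and -1.15 on either array at 60. On the RING1B arrays both dyes were lower at 60 than at up to 45 bases, and Cy5 fell more than Cy3. On array 1 the median log2 Cy5 signal was 10.6 for the shortest and 9.02 for the longest probes, while Cy3 was 10.2 and 9.68. Base composition of the probes was not analysed here.

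Outside the top window, members lay above regions under both thresholds, which the rule holds low. They lay below the median of all regions at every probe length. The other sets kept their top windows, so the comparison is unlike and cannot show whether members lie lower. At up to 45 bases the members' median RING1B was 0.65 on array 1 and 0.66 on array 2, and at 60 bases -0.38 and -0.33. All regions had 0.66 and 0.70 at up to 45 bases, and -0.36 and -0.33 at 60, where the difference on array 2 was under 0.01. The same comparison for H3K27me3 gave 0.35 and 0.15 at up to 45 bases and -1.12 and -1.13 at 60, close to regions under both thresholds. When each probe was centred on the median of probes of its own length, an alternative chosen after seeing the data, 232 regions met the rule. Of the 428 members 141 were among them, the RING1B top window of the members had a median of 1.42, and 60 members then reached 1 for H3K27me3.

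**Figure D5:**
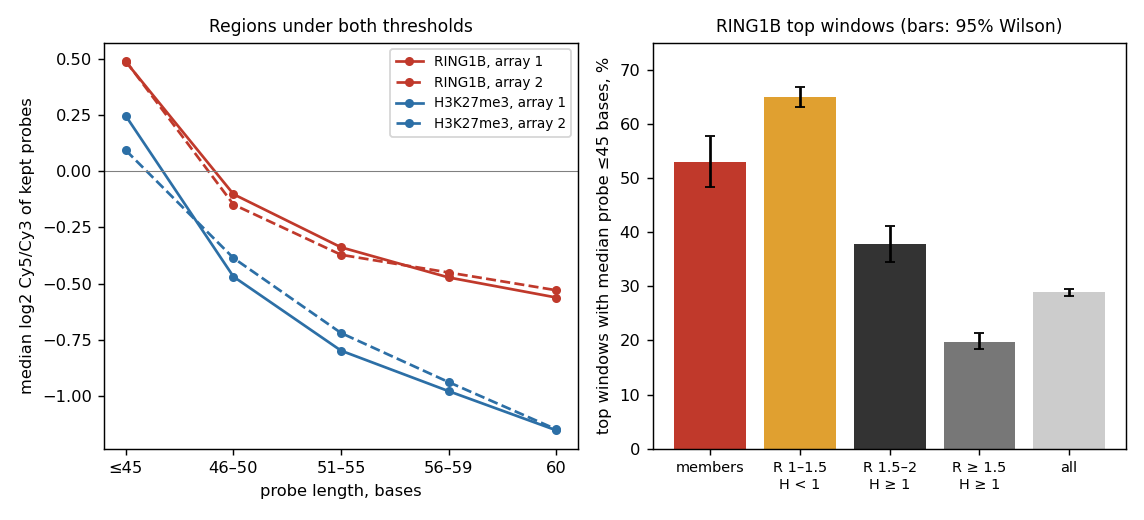
Left, median log2 Cy5/Cy3 of kept probes by probe length in regions under both thresholds, for each antibody and array. Right, percent of regions whose RING1B top window has a median probe of at most 45 bases, with bars from 0. The 95% Wilson intervals cover counting error only, and R stands for the RING1B and H for the H3K27me3 top window. Ratios fall from the shortest to the longest probes in all 4 arrays, and 53% of members against 28.9% of all regions have such a window.

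The raised ratio of members came from both dyes of the RING1B array. In the top window Cy5 lay above the median of the array's kept probes by 1.30 on array 1 and 1.40 on array 2, and Cy3 lay below it, by differences of -0.49 and -0.37. The Cy3 of the H3K27me3 array gave a second denominator at the same probes. With it, the RING1B ratio of the members' windows had a median of 1.71 on array 1 and 1.24 on array 2. It stayed at 1 or more in 148 of 149 members on array 1 and 184 of 279 on array 2, and was under 0 in 0 and 1. Of all regions with both values, 3936 of 10106 and 2551 of 9090 reached 1 in this ratio, and of the shared regions of like RING1B 453 of 458 and 262 of 343. The shared regions had medians of 1.6 and 1.39. The RING1B Cy5 signal that the rule used enters both ratios, so the second is not independent.

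Which regions were members depended strongly on the processing. With normexp background correction of the raw signals 63 regions met the rule and 13 of the 428 were among them, the members' median RING1B top window being 0.88. With loess 362 met it and 185 of the members remained. With windows of 5 probes 136 met it, and with no filter on dim probes 932, with 112 and 344 of the members. The rule on the deposited value table returned all 428, which was fixed beforehand, since it holds the same ratios. Centring on regions under 2-fold for both antibodies raised the members' medians to 2.02 for RING1B and 1.21 for H3K27me3, and 328 of them reached 1 for H3K27me3. The members were thus under 2-fold for H3K27me3 on the scale of the rule, and were not shown to lack the mark. Their median H3K27me3 top window was 0.49, beside 0.38 over all regions with both values. Such a value is the highest of a region's windows, of which members had more, a median of 25 for RING1B against 17. This comparison thus cannot decide on the mark. The H3K27me3 average over the region had a median of -0.57 in members and -0.45 in all regions.

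Membership was followed over 8 alternatives: normexp, loess, no filter on dim probes, windows of 5 probes, the median of 3 probes, removal of outlier spots, centring within probe length and the second denominator. No member met the rule under all 8, and 24 did under 7 of them. They included the chromosome 9 member at 2.57 and the chromosome 5 member at 2.33 above, and 104779999 to 104787443 on chromosome 14 at 2.24 ± 0.42. Further ones were 69713305 to 69722688 on chromosome 11, at 2.10 ± 0.18 with H3K27me3 at -0.50 in the window, and 117803513 to 117809102 on chromosome 6, at 1.93 ± 0.11, where the 2 kept H3K27me3 probes read 1.13 and -1.80. In 125361306 to 125367129 on chromosome 2 RING1B was 1.72 ± 0.29 and H3K27me3 did not rise above -0.41 in any window. The member with the highest RING1B, on chromosome 14, and the next, on chromosome 12, were not among the 24.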

How the data were processed

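Chromatin immunoprecipitation on 2-colour promoter tiling arrays was analysed, with 2 arrays per antibody and 1 array per antibody for each region. Scans were read by the authors with Feature Extraction 10.1.1.1 (Agilent), per the file headers. The deposited processed signals are intensity values, background-subtracted, detrended and linearly dye-normalized. The deposited log ratios are on the log10 scale, as Cy5/Cy3. Value tables, also deposited, hold the same ratios as log2, not centred (column medians -0.11 and -0.12 on RING1B arrays 1 and 2, -0.16 and 0.02 on the H3K27me3 arrays). The sources used here do not give the genome build, so regions carry no gene names. Gene lists, cell type markers, motifs and sequences were not analysed.

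A probe was kept if it was no control and both of its channels were well above background. Processed ratios, as log2, had the median over kept probes subtracted, array by array. Regions, windows and thresholds are those of the opening, in Python 3.11.15; limma 3.58.1 gave normexp (offset 50) and loess. The code was tested on simulated data. The members and lists were chosen with earlier results of these data known. Regions were named by rank: the 12 highest, the 8 widest gaps, the 4 broadest and 3 on each side of a threshold; the members stable across alternatives were chosen after their values were seen. Precision is limited by the number of arrays.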

Additional observations from a re-analysis of the deposited data

How the results depend on the processing

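No paired analysis was possible because numbers 1 and 2 mark array designs with different probes. The count of members was 428, 2.23% of regions. It moved beyond 1.5 times with normexp (63, 0.328%, on a narrower scale) and no filter on dim probes (932, 4.58%). It also did so with probes bright in at least 1 channel (879, 4.38%) and windows of 5 probes (136, 0.796%). The same held for a lower RING1B threshold (1240, 6.46%), one of 2 (39, 0.203%), an H3K27me3 threshold of 0.5 (222, 1.16%) and Cy3 over Cy5 (828, 4.31%). Chosen after seeing the data, centring within probe length gave 232 (1.21%) and the Cy3 of the H3K27me3 array 874 (4.55%). The count stayed within 1.5 times with loess (share 1.89%) and with centring on the mode (2.57%) or on regions under 2-fold (2.62%). A like count was not a like set. Of the 428 members 185 remained with loess, 399 with centring on the mode and 100 with centring on regions under 2-fold. The count was also within 1.5 times with the median of 3 probes (2.45%) and an H3K27me3 threshold of 1.5 (2.77%). These settings kept all 19196 regions, so share and count changed by the same factor. The count stayed within this limit too with at least 10 kept probes (3.04%) and regions joined at 500 bp (1.49%) or 2000 bp (2.72%). There the number of regions changed as well. Either array alone gave 149 to 279 members, 1.47% to 3.07%. The cause of these moves was not tested. Share and count held without outlier spots. The value table holds the same ratios, so its equal count was fixed beforehand. The median RING1B excess over H3K27me3 in the window, 1.53, ranged from 1.13 to 2.01 over 22 alternatives. Each reselects its regions by the rule, which fixes the excess, so this says nothing about stability. Over 6 alternatives the share of windows within 2-fold of the top, 28%, ranged from 22% to 42.1% (windows of 5 probes), and the flank difference from shared regions, -0.23, from -0.18 to -0.35 (centred within probe length). Position, 1888 bp from the nearer end, ranged from 1728 to 1924 bp, and log2 Cy3, 9.41, from 8.82 to 9.59. The 6 alternatives did not include normexp or centring on regions under 2-fold, and each reselected its regions by the rule. These ranges thus say little about stability. Gene lists and base composition were not run, for want of gene names and sequence in the sources used here.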
